A study of Mus musculus with 3 samples.

Results

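Interferon-stimulated genes are the genes that cells switch on when interferon reaches them, and 37 of them were followed here through irradiated mouse spleen. The 37 were a fixed list of gene symbols, chosen with earlier results of these data known. All 37 matched a gene among the 56980 of the deposited tables. Wild-type spleens had been taken apart into single cells and sequenced on the 10x Genomics platform, which tags each RNA molecule with a barcode of its cell, as 3 libraries, 1 for each group. The Control library came from mice that were not irradiated, the IR library from mice given 8.5 Gy and a "colvent control", and the IR_HSO library (IR+HSO in the labels) from mice given 8.5 Gy and HSO, which the series title spells out as hemp seed oil. Both irradiated groups shared the dose of 8.5 Gy. The Control group shared neither the dose nor, as far as the labels go, the vehicle. The number of mice behind each library, their age and sex, the strain and the time between irradiation and sampling are not given in the sources used here. With 1 library per group there is no replicate, so no p-value is given, and every interval in square brackets is a 95% interval of counting error only.

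Type I interferons bind the receptor made of Ifnar1 and Ifnar2, whose kinases Jak1 and Tyk2 activate a complex that holds Stat2 and Irf9 and binds the interferon-stimulated response element in promoters. Interferon gamma, the product of activated T and NK cells, acts through Ifngr1 and Ifngr2 and a different, palindromic promoter element. The induced proteins sense viral nucleic acid, cut or trap viral RNA, block viral assembly and, through Irf7, feed back on interferon production. In many cell types the same genes are also induced by self nucleic acid sensed in damaged cells.

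The promoters of the list carry the letters of the response element more often than promoters in general. RefSeq windows from 250 bases before to 50 bases after the start, in build GRCm38.p6, were found for 27 of the 37 genes. No window was found for Dhx58, Zbp1, Oas2, Mx1, Mx2, Usp18, Gbp4, Rtp4, Ifi27l2a and Parp14. The letters GAAA, any 2 bases and GAAA again, searched on both strands (TTTC, 2 bases and TTTC on the other), were present for 16 of 27 genes (59.3%) and for 3.99% of the 27025 genes with a window. The palindromic letters of the interferon gamma element, TTC, any 3 bases and GAA, was present for 6 of 27 (22.2%) and for 9.55% of all genes. A match describes letters only, and its use in these cells was not measured. The 250 bases before the start are shown for the genes whose levels the results turn on, 5′ to 3′ in the direction of transcription, with the response element letters or their complement in capitals. The 250 bases of Ifit1 lie at chr19:34640639-34640888 on the plus strand, with matches beginning 104 and 85 bases before the start. Ifit3 lies at chr19:34583279-34583528 on the plus strand, with matches at 156 and 122 bases before the start. Ifit3b, its near copy, lies at chr19:34607707-34607956 on the plus strand, with matches at 188 and 154 bases. The Ifit3 and Ifit3b windows share an identical run of 169 of 300 bases. How alike their transcripts are, and how reads that fit both genes were counted, was not examined.
Ifit1: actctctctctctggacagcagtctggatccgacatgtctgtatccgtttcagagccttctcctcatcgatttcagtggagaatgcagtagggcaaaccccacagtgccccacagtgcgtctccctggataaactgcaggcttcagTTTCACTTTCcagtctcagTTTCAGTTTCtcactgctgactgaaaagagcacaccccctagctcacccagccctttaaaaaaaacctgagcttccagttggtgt
Ifit3: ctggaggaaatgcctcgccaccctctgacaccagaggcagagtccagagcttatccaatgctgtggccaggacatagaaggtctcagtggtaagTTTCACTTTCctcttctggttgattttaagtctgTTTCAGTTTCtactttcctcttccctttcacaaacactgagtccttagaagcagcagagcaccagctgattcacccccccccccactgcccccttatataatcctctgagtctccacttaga
Ifit3b: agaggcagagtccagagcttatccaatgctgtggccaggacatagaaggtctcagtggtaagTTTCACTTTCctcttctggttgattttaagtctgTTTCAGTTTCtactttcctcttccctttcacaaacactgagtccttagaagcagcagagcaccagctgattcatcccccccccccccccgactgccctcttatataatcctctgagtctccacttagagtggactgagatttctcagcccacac

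Isg15 lies at chr4:156200819-156201068 on the minus strand and holds overlapping matches at 78, 72 and 66 bases before the start. Rsad2 lies at chr12:26456453-26456702 on the minus strand, with 1 match at 120 bases. Oas1a, whose level set the IR_HSO library apart, lies at chr5:120907526-120907775 on the minus strand, with overlapping matches at 20 and 14 bases. Gbp2, the only gene of the list with a lower T cell level in both irradiated libraries, lies at chr3:142620413-142620662 on the plus strand and holds a match at 59 bases. Irf7 lies at chr7:141266425-141266674 on the minus strand and holds none of these letters in this window.
Isg15: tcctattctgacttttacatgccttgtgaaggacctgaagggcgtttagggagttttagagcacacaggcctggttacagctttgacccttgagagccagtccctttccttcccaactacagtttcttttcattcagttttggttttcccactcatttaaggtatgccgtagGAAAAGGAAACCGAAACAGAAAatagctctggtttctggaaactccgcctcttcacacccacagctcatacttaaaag
Rsad2: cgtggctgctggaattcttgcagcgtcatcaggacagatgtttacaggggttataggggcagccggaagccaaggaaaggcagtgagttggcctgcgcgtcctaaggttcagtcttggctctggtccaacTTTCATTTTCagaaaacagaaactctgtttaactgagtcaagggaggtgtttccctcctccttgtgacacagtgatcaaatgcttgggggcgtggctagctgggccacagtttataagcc
Oas1a: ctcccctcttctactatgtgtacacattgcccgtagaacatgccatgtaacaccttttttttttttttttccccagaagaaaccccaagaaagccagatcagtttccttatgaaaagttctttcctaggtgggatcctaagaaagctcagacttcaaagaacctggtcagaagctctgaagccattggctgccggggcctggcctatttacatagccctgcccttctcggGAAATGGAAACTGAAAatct
Gbp2: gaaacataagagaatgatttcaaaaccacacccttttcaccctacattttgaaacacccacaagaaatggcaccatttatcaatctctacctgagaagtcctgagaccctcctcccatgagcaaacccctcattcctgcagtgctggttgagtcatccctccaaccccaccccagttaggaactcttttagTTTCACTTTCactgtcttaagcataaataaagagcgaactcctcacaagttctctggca
Irf7: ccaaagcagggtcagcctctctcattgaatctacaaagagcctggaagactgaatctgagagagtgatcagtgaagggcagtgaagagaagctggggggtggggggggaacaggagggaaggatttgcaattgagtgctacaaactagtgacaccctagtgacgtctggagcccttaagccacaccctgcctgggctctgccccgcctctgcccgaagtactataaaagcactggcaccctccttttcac

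Cells with at least 500 UMIs (unique molecule counts) and under 10% mitochondrial UMIs were sorted into gates by a few marker genes. The T gate took cells with at least 2 UMIs of Cd3d, Cd3e and Cd3g, the NK gate an Ncr1 UMI and no Cd3 UMI, the B gate at least 2 UMIs of Cd79a and Cd79b, and the plasma gate at least 10 UMIs of Jchain. Cells that met more than 1 gate were left out, except that cells of the B and plasma gates counted as plasma. In the order Control, IR and IR_HSO, the T gate held 3190, 8047 and 6866 cells, the NK gate 281, 1502 and 1035, the B gate 4066, 98 and 45, and the plasma gate 58, 249 and 298. Median UMIs per T cell were 5302, 3551 and 3535. The libraries shared 34 to 54 cell barcodes pairwise. All 10 T markers were detected in the T gate, which also held B markers at 100, 20.4 and 21.0 CPM (UMIs scaled to a total of 1000000). Its NK markers stood at 646, 1466 and 1057 CPM and its pancreatic acinar markers at 1.99, 1931 and 766 CPM. The monocyte list had 9 of 9, 8 of 9 and 8 of 9 markers in the T gate, at 291, 211 and 188 CPM, with Fcgr1 at 0 in both irradiated libraries. Plasmacytoid dendritic markers, of the cell type best known for making type I interferon, stood there at 118, 88.0 and 69.5 CPM, with Siglech at 0 in IR and Cd300c at 0 in IR_HSO. The part of these other cells and of their free RNA in the results was not tested.

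Each level in CPM sums the UMIs of a gene over the cells of a gate in 1 library and scales them to the total of that gate. A gene counted as higher or lower when its level differed at least 1.5-fold, among genes with at least 5 CPM in either library and at least 20 UMIs over both. In every gate, a gene under 5 CPM in the second-named library passes this minimum only through the first, which favours a higher call. For IR against Control in T cells these were Oas1a, Oas2, Ifit3b, Mx2, Rsad2, Cmpk2 and Ifi44. In T cells all 37 genes could be compared between IR and Control. Of these, 25 were higher in IR, 12 lay between and 0 were lower. By the same rule 13.4% of the 10310 genes compared were higher and 3.19% were lower. The list was chosen with earlier results of these data known, so the counts describe it and test nothing. The median log2 ratio was 0.85 for the list and 0.16 for all genes compared. The summed level of the list was 1700 CPM [1681, 1719] in Control, 2757 CPM [2740, 2775] in IR and 3014 CPM [2994, 3034] in IR_HSO. Ifi27l2a, a small mitochondrial protein gene, supplied 413, 664 and 695 CPM of these sums, and without it the sums were 1287, 2094 and 2319 CPM. The higher count moved to 23 when genes of immunoglobulins, ribosomes, mitochondria, haemoglobins and the pancreas were taken out of the scale. It moved to 20 when ratios were centred on the median of all genes. Of all genes 11.5% and 10.1% were higher under these settings. Foxp3-positive cells made up 6.30, 10.4 and 22% of the T gate and cells with Cd8 alone 34.4, 7.94 and 8.78%. With the subsets weighted as in Control, 25 of the 37 genes were higher in IR, where 12.4% of all genes were.

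**Figure D1:**
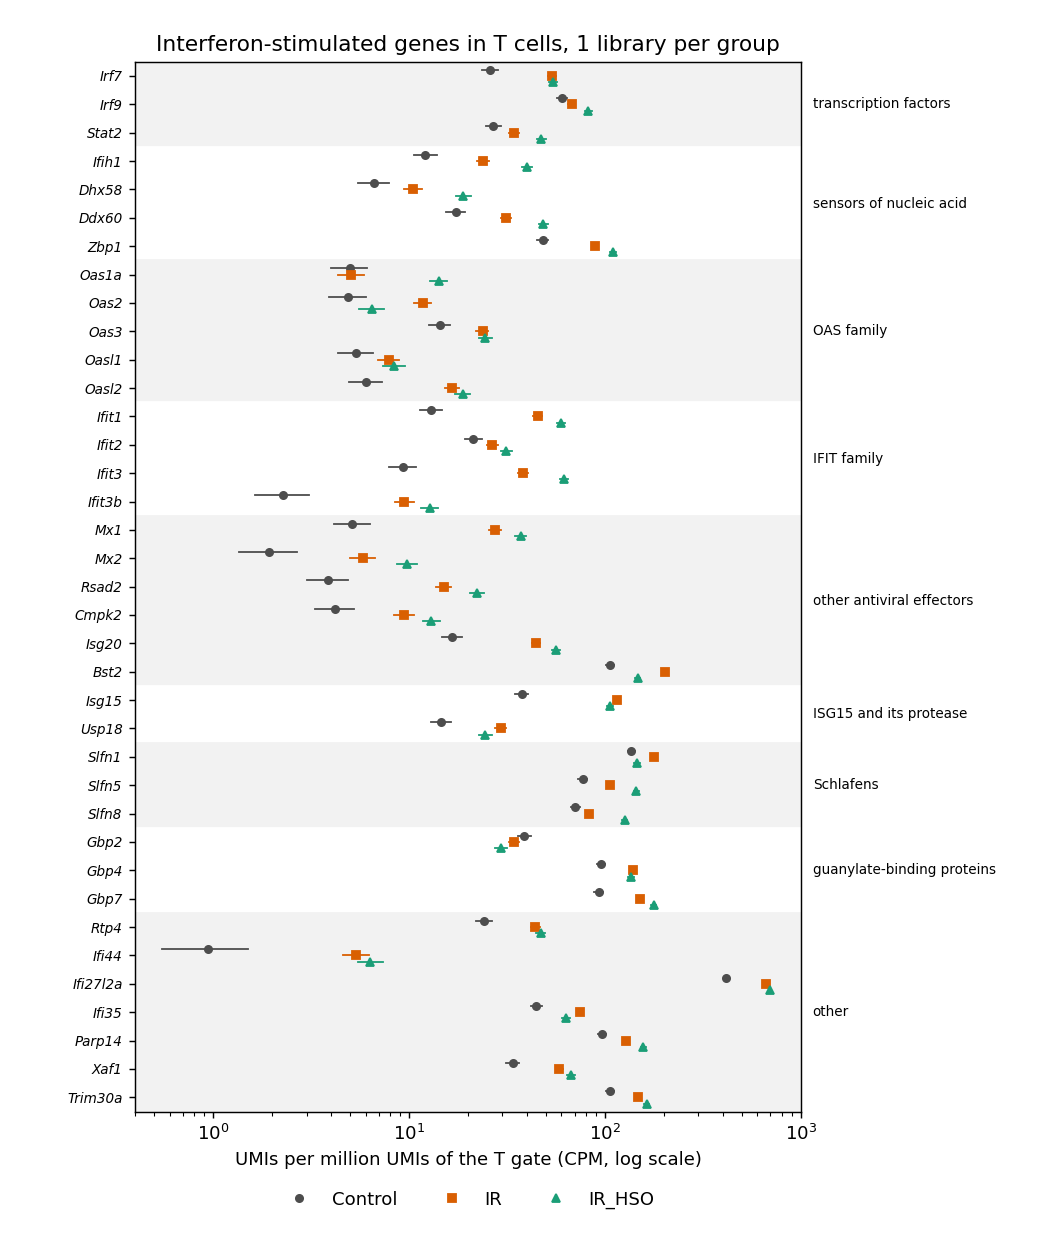
Level of each of the 37 genes in T cells (CPM, log scale), grouped by role, with 1 point per library and a bar for the 95% counting interval. The IR points lie to the right of the Control points for 36 of the 37 genes, and Gbp2 is the exception.

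The IFIT proteins, which bind viral RNA and stop its translation, had the largest summed ratio but for Isg15 and its protease. Ifit3 stood at 9.29, 38.2 and 61.9 CPM, in the order Control, IR and IR_HSO used from here on, and its level in IR was 4.11 times [3.50, 4.86] that in Control. Ifit1 was at 12.9, 45.4 and 59.7 CPM, a ratio of 3.51 [3.06, 4.05]. Ifit3b was at 2.27, 9.47 and 12.7 CPM, with a ratio of 4.18 [3.01, 5.93] that rests on 41 Control UMIs. These 3 genes stood low in Control and higher in both irradiated libraries, and their intervals of Control and IR do not overlap. Ifit2, at 21.3, 26.6 and 31.4 CPM, differed by only 1.25-fold [1.11, 1.41] between IR and Control. The 4 genes summed were 2.61-fold [2.42, 2.82] higher in IR.

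All 6 other antiviral effectors were higher in IR, with a summed ratio of 2.21. Mx1, a dynamin-like GTPase that traps viral nucleocapsids, was at 5.14, 27.5 and 37.1 CPM, 5.34-fold [4.31, 6.69] higher in IR. Its relative Mx2 was at 1.94, 5.80 and 9.76 CPM, with a ratio of 2.99 [2.08, 4.42]. Rsad2 encodes viperin, a radical enzyme that makes a chain-ending nucleotide, and was at 3.87, 15.0 and 22.3 CPM, 3.87-fold [3.01, 5.05] higher. Cmpk2, its neighbour and substrate supplier, was at 4.20, 9.44 and 13 CPM, 2.25-fold [1.74, 2.92] higher. Isg20, an exonuclease of single-stranded RNA, was at 16.6, 44.5 and 56.5 CPM, 2.68-fold [2.37, 3.05] higher. Bst2, the tether that holds budding virus on the membrane, was at 106, 202 and 147 CPM, 1.91-fold [1.81, 2.01] higher in IR than in Control. Of the 6, Bst2 alone was lower in IR_HSO than in IR, by 1.37-fold.

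Isg15, a ubiquitin-like protein joined to other proteins during the response, was at 37.7, 115 and 106 CPM, 3.04-fold [2.80, 3.30] higher in IR. Usp18, the protease that removes it and that also blocks the type I receptor, was at 14.6, 29.4 and 24.5 CPM, 2.01-fold [1.75, 2.31] higher. Among the OAS enzymes and their relatives, which answer double-stranded RNA by activating RNase L or by other means, 3 of 5 were higher in IR. Oasl2 was at 6.03, 16.6 and 18.8 CPM with a ratio of 2.75 [2.24, 3.41], and Oas2 at 4.87, 11.8 and 6.46 CPM with a ratio of 2.42 [1.91, 3.08]. Oas3 had a ratio of 1.66 and Oasl1 one of 1.47. Oas1a did not differ between Control and IR, at 4.98 and 5.05 CPM, a ratio of 1.01 [0.781, 1.32]. Oas1a had the smallest distance from 1 of the 37.

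All 4 sensors of nucleic acid were higher in IR, within a narrow range of ratios. Ifih1, the MDA5 sensor of long double-stranded RNA, was at 12.1, 24 and 40.2 CPM, with a ratio of 1.98 [1.70, 2.31] between IR and Control. Zbp1, a sensor of Z-form nucleic acid that can trigger necroptosis, was at 48.2, 89.1 and 110 CPM, a ratio of 1.85 [1.72, 2]. Ddx60 had a ratio of 1.80 and Dhx58, the helicase LGP2, one of 1.58. Of the transcription factors only Irf7, the amplifier of type I interferon production, was higher, at 25.9, 53.5 and 54.4 CPM with a ratio of 2.07 [1.87, 2.29]. Stat2 and Irf9, which bind the response element together, had ratios of 1.27 and 1.12.

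The Schlafens, restrainers of T cell division and of viral translation, had the smallest summed ratio, 1.29, and the guanylate-binding proteins one of 1.43. Slfn1, Slfn5 and Slfn8 had ratios of 1.31, 1.37 and 1.17, and none reached 1.5-fold. Slfn8 has a close relative in Slfn9, so its reads are less certain. Gbp7, a GTPase of the vacuole defence system, was 1.64-fold [1.55, 1.73] higher and Gbp4 had a ratio of 1.45. Gbp2, which interferon gamma induces, was at 38.8, 34.2 and 29.6 CPM, a ratio of 0.882 [0.802, 0.970] in IR against Control. Of the remaining 7 genes, 5 were higher in IR. Ifi44 was at 0.940, 5.38 and 6.35 CPM, a ratio of 5.72 [3.47, 10.0], the largest of the list, which rests on 17 Control UMIs. Rtp4, Xaf1, Ifi35 and Ifi27l2a had ratios of 1.82, 1.73, 1.67 and 1.61, whereas Trim30a (1.38) and Parp14 (1.32) lay between.

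IR_HSO and IR differed less in T cells. Of 37 genes, 7 were at least 1.5-fold higher in IR_HSO, 1 was lower and 29 lay between, where 7.78% of all 10534 genes compared were higher and 5.34% lower. The median log2 ratio was 0.24, against 0.04 for all genes. Against Control, 29 of the 37 genes were higher in IR_HSO, where 21.6% of all genes were, and the median was 0.96. That comparison and the one of IR with Control share the Control library. The mitochondrial share of UMIs in T cells was 2.16, 2.33 and 3.26%, and neutrophil markers stood at 32.0, 9.44 and 216 CPM in the T gate. Their part in these values was not tested.

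3 of the 4 sensors were among the 7 genes. Ifih1 was 1.68-fold [1.53, 1.84] higher in IR_HSO than in IR, Dhx58, at 6.64, 10.5 and 19.0 CPM, 1.80-fold [1.57, 2.07], and Ddx60, at 17.4, 31.3 and 48.6 CPM, 1.55-fold [1.43, 1.68]. All 3 stepped up from Control to IR and again to IR_HSO, with no overlap of their counting intervals. Ifit3 was 1.62-fold [1.51, 1.74] higher in IR_HSO, Mx2 1.68-fold [1.40, 2.03], and Slfn8, at 70.7, 83.1 and 126 CPM, 1.52-fold [1.44, 1.59]. Several values lay near the limit, and at a limit of 2-fold only Oas1a remained of the 7.

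The OAS genes parted ways. Oas1a was at 4.98 CPM in Control, 5.05 in IR and 14.2 in IR_HSO, 2.82-fold [2.35, 3.39] higher in IR_HSO than in IR. Oas2 went the other way, at 11.8 CPM in IR and 6.46 in IR_HSO, 1.82-fold [1.53, 2.18] lower. Oas3 and Oasl1, with ratios of 1.03 and 1.06, hardly differed. Oas1a was highest in IR_HSO in each subset of T cells and in NK cells. In NK cells it was at 5.97, 5.01 and 14.4 CPM, in the Foxp3 gate at 8.97, 6.30 and 15.9, and in CD8 cells at 3.27, 3.77 and 7.14. Oas1b, a gene of the same cluster, stood at 7.30, 7.29 and 7.83 CPM in T cells, and Oas1g at 1, 0 and 4 UMIs. Isg15, Usp18, Slfn1, Ifi35 and Bst2 had ratios of IR_HSO to IR between 0.729 and 0.924, whereas the 4 IFIT genes had ratios between 1.18 and 1.62.

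T cells were split by detection of Foxp3, the factor of regulatory T cells, and of Cd4 and Cd8a or Cd8b1. The split depends on depth, and cells with neither Cd4 nor Cd8 made up 22, 48.5 and 39.0% of the T gate. Regulatory T cells already stood apart in Control, where the summed level of the list was 2632 CPM [2542, 2724] in the Foxp3 gate, 1904 CPM [1868, 1939] in CD4 cells and 1334 CPM [1306, 1362] in CD8 cells. In IR the sums were 2906, 2929 and 2527 CPM, and in IR_HSO 3105, 3233 and 2515 CPM. Part of the head start was Ifi27l2a, at 961 CPM in the Foxp3 gate of Control and 194 CPM in CD8 cells. Without it the Control sums were 1671, 1342 and 1139 CPM, in the same order.

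**Figure D2:**
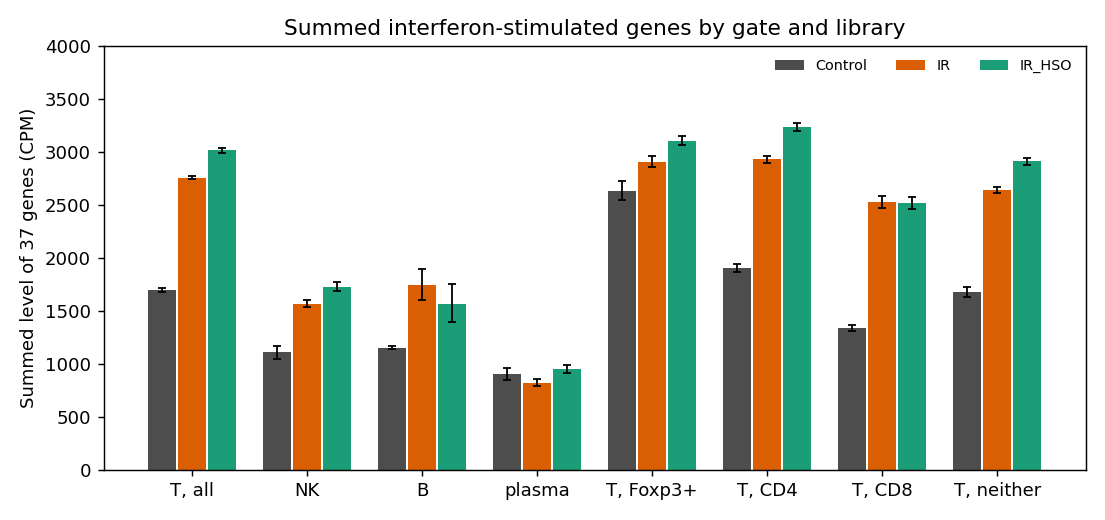
Summed level of the 37 genes (CPM) by gate and library, with bars from 0 and 95% counting intervals; T cells are shown whole and by Foxp3, Cd4 and Cd8 detection. Control CD8 cells have the lowest T cell sum, 1334 CPM, and the plasma gate stays between 819 and 948 CPM.

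Between IR and Control, 27 of 34 genes compared were higher in CD8 cells (17.8% of all genes), 23 of 36 in CD4 cells (14.6%), 23 of 37 in cells with neither (14.5%), and 10 of 35 in the Foxp3 gate (15%). The medians were 0.95, 0.76, 0.78 and 0.33. Rsad2 shows the spread. It was at 1.48 CPM in Control CD8 cells, from 10 UMIs, and at 13.2 CPM in IR, a ratio of 8.90 [4.39, 19.9]. In the Foxp3 gate it was at 13.9 and 10.2 CPM, a ratio of 0.739 [0.408, 1.39]. Slfn5 was at 37.4 and 84.9 CPM in CD8 cells, a ratio of 2.27 [1.90, 2.71], and at 106 and 117 CPM in CD4 cells, a ratio of 1.10 [0.999, 1.21]. Isg15 had ratios of 3.17 in CD8 cells, 3.32 in CD4 cells and 1.21 [0.958, 1.55] in the Foxp3 gate. Gbp2 was 1.5-fold or more lower in the Foxp3 gate alone of these 4, with a ratio of 0.593 [0.439, 0.807]. The differences between subsets were not tested, as each subset has 1 library per group. The Foxp3 gate of Control held 201 cells.

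Between IR_HSO and IR, 12 of 37 genes were higher in cells with neither Cd4 nor Cd8 (6.82% of all genes), 7 of 37 in CD4 cells (10.9%), 6 of 36 in CD8 cells (9.82%) and 6 of 35 in the Foxp3 gate (8.69%). Oas1a was among them in all 4 subsets. Oas2 was lower in 3 of the 4, and in the Foxp3 gate it was too low to compare. Ifit3 was at 6.31, 37.9 and 76.6 CPM in cells with neither, 2.02-fold [1.81, 2.26] higher in IR_HSO than in IR. In CD8 cells it was at 13.4, 44.0 and 58.2 CPM, with a ratio of 1.32 [1.05, 1.66].

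In NK cells, innate killers that make interferon gamma, 34 genes could be compared between IR and Control and 20 were higher, where 14.5% of all genes were. Only Rsad2 was lower, at 6.82 and 3.97 CPM from 8 and 19 UMIs, with an interval of its ratio from 0.243 to 1.54. By share of cells the order was the reverse. An Rsad2 UMI was found in 0.356% of the 281 Control cells and in 0.866% of the 1502 IR cells. Over all genes 9.5% were lower. The median log2 ratio was 0.65, against 0.00 for all genes. Mx1 was at 7.67, 42.2 and 42.7 CPM, 5.50-fold [2.84, 12.2] higher in IR. Ifit1 was at 3.41, 17.8 and 29.5 CPM, 5.21-fold [1.96, 19.5] higher, and Ifit3 at 4.26, 14.4 and 28.3 CPM, 3.38-fold [1.38, 10.7]. Slfn1 (3.41, 11.7 and 8.12 CPM) and Oasl1 (1.71, 5.85 and 8.35 CPM) were both 3.43-fold higher, Oasl1 with an interval from 0.865 to 29.7. Control NK levels rest on few UMIs, 4 for Ifit1 and 2 for Oasl1. Dhx58, Oas3, Oasl1, Oasl2, Ifit1, Ifit3, Cmpk2, Isg20, Slfn1 and Ifi44 were under 5 CPM in Control. They passed the minimum only through IR, which favours a higher call. Ifi44, at 0 UMIs in Control and 30 in IR, was 2.45-fold higher when Control is set to 3 UMIs. The lower end of its counting interval was 1.87. With a minimum of 20 CPM 9 of 19 genes were higher, where 8.44% of all genes were. With cells thinned to 1000 UMIs 11 of 24 were higher, where 18.9% of all genes were. Oasl1 had a log2 ratio of -0.022 when cells of more than 1 gate were kept.

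Between IR_HSO and IR, 9 of 35 genes were higher in NK cells and 0 were lower, where 8.19 and 6.95% of all genes were. Rsad2 was at 3.97 CPM in IR and 15.3 in IR_HSO, 3.86-fold [2.29, 6.80] higher. Oas1a followed with 2.87-fold [1.76, 4.80] and Mx2, at 2.30 and 5.57 CPM, with 2.42-fold [1.14, 5.48]. Rsad2 and Mx2 were under 5 CPM in IR and passed the minimum only through IR_HSO. Slfn5, at 6.82, 22.8 and 52.4 CPM, was 2.30-fold [1.82, 2.92] higher, and Oasl2, at 3.41, 6.06 and 13.2 CPM, 2.18-fold [1.37, 3.54]. Mx1 did not differ, with a ratio of 1.01 [0.823, 1.24]. Pancreatic acinar markers took 4.3, 3836 and 6768 CPM of the NK gate in the 3 libraries, and their part was not tested.

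**Figure D3:**
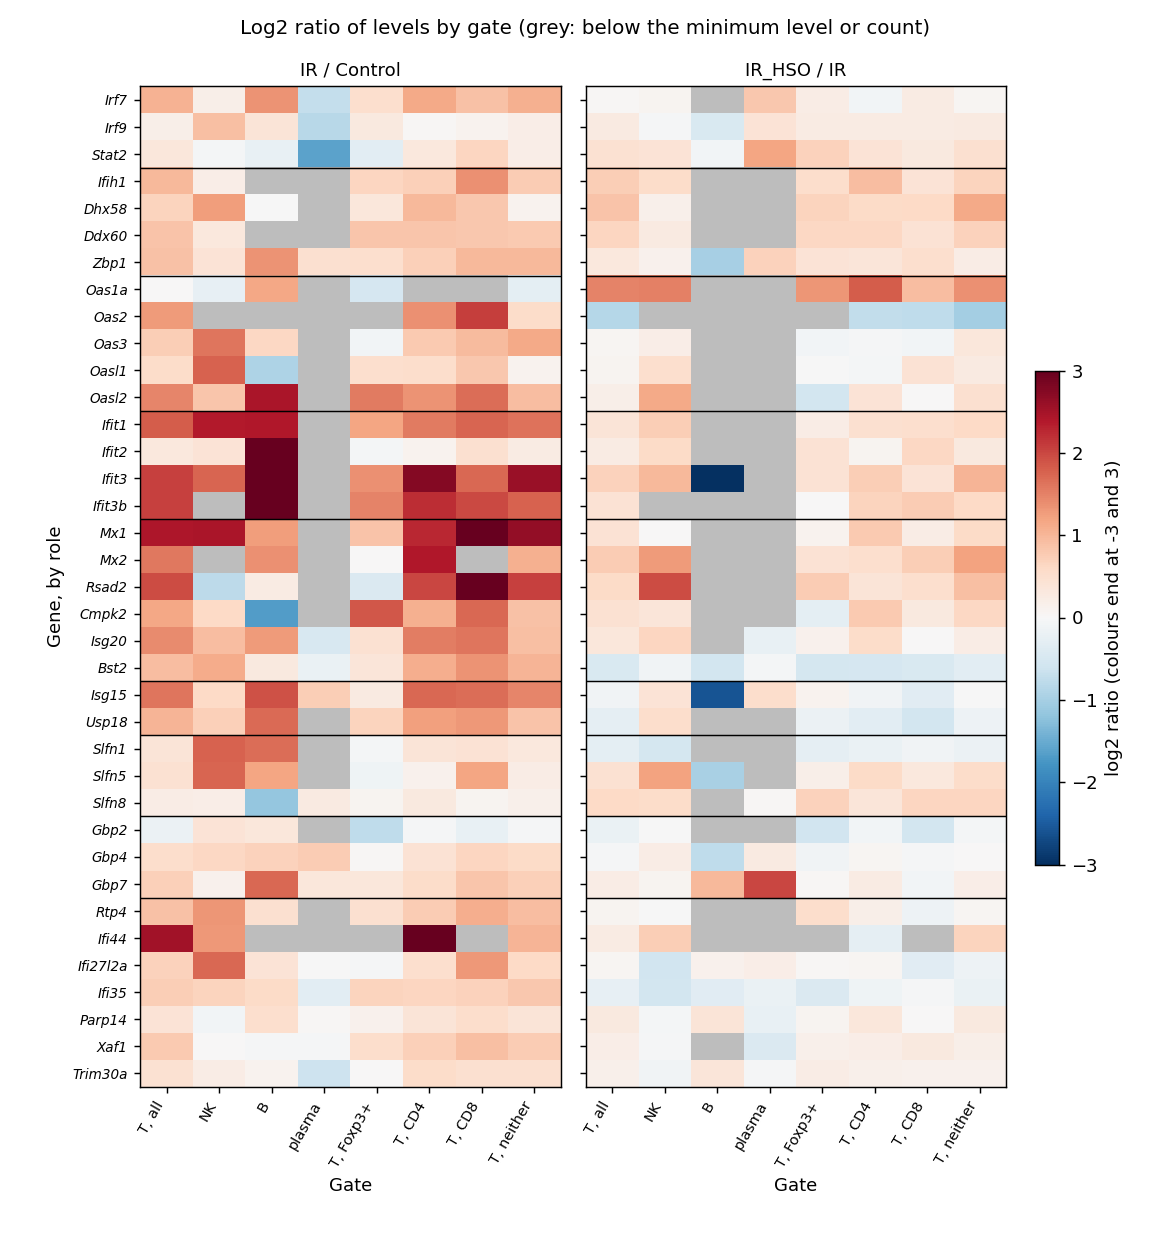
Log2 ratio of each gene (rows, by role) in each gate (columns) for IR against Control and for IR_HSO against IR; red is higher in the first-named library, blue lower, and grey marks genes below 5 CPM in both libraries or 20 UMIs over both. The left panel is red over most T and NK cells, while in the right panel the whole T gate is darkest at Oas1a and NK cells are darkest at Rsad2, and B cells are blue at Ifit3 and Isg15.

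Few B cells were left after irradiation, so their values have wide intervals. The B gate held 312007 UMIs in IR and 187704 in IR_HSO, against 17308792 in Control. Of 33 genes compared between IR and Control, 18 were higher and 3 lower, where 19.9% and 18% of all genes were. Of the higher genes, Oas1a, Oas3, Mx2, Slfn1, Ifit1 and Ifit3b were under 5 CPM in Control and passed the minimum only through IR. The intervals of Oas1a, Oas3, Mx1, Mx2, Slfn1 and Gbp4 reach below 1. Of the lower genes, Slfn8 had a ratio of 0.451 [0.194, 0.892], and the intervals of Oasl1 and Cmpk2 reach past 1. The median was 0.68, against 0.04 for all genes. All 4 IFIT genes were among the 5 with the largest absolute log2 ratio, with Oasl2. Ifit3b had a ratio of 9.91 [2.99, 26] from 28 and 5 UMIs, Ifit2 of 9.15 [5.03, 15.6] from 97 and 16, Ifit3 of 8.42 [5.12, 13.2] from 145 and 22, and Ifit1 of 5.28 [1.38, 14.6] from 42 and 4. Oasl2, with 121 and 12 UMIs, had a ratio of 5.50 [2.77, 9.97]. These UMIs sat in few cells: the 47 IFIT UMIs of IR came from 12 of 98 cells (12.2% [6.49, 20.4]), and 34 of them from 3 cells. In Control 159 of 4066 cells (3.91%) held an IFIT UMI, and 3 cells held 67 of the 312 UMIs. With cells of more than 1 gate kept, which adds cells that also met the T, NK or plasma gate, 4 of 31 genes were higher and 14 lower. In IR 138 cells met the T and B gates, 25 the NK and B gates and 275 the B and plasma gates. Over all genes 6.17% were higher and 77.6% lower, and the median was -0.44 for the list and -1.14 for all genes. Ifit2, Ifit3b and Oasl2 stood lower in IR under that setting.

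IR_HSO B cells gave 13 comparable genes against IR, of which 1 was higher and 5 lower, where 12.7% and 19.9% of all genes were. Ifit3 had 22 UMIs in IR and 1 in IR_HSO, a ratio of 0.0756 [0.00183, 0.467], and Isg15 had 20 and 2, a ratio of 0.166 [0.0188, 0.684]. Zbp1 had 20 and 6 UMIs, and Slfn5 23 and 7, with intervals of their ratios that reach past 1. Zbp1 was higher in IR_HSO when cells of more than 1 gate were kept. Gbp7, with 17 and 20 UMIs, was 1.96-fold [0.973, 3.97] higher. All 3 IFIT UMIs of IR_HSO lay in 1 of 45 cells. A share of cells with an IFIT UMI of 2.22% has an interval from 0.0562 to 11.8%, so a difference from IR was not detectable in so few cells.

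Plasma cells pour most of their RNA into immunoglobulins, and their counts depend on the scale. Of 15 genes compared between IR and Control, 2 were higher and 4 lower, where 4.38% of all genes were higher and 65.1% lower. The median of the list was -0.03 and that of all genes -0.81. Immunoglobulin, ribosomal, mitochondrial, haemoglobin and pancreatic genes took 57.7% of Control and 75.0% of IR plasma UMIs. Scaled without them, 8 were higher and 1 lower, where 15.5% and 20.8% of all genes were. Centred on all genes, 9 were higher and 1 lower, where 18.5% and 19.4% of all genes were. Irf7 was level in the first of these scales, with a log2 ratio of 0.036. In thinned cells Isg15 and Gbp4 stood lower in IR. Stat2 was at 19.7, 6.51 and 14.9 CPM, a ratio of 0.330 [0.172, 0.628] in IR. Irf9 was at 21.4, 12 and 16 CPM, a ratio of 0.562 [0.329, 0.973], and Irf7 at 12.9, 7.81 and 13.7 CPM, a ratio of 0.607 [0.306, 1.24]. Isg15 was at 13.7, 22.8 and 33.1 CPM, 1.66-fold [0.954, 3.06] higher, and Gbp4 at 7.72, 13 and 15.6 CPM, 1.69-fold [0.806, 3.95] higher in IR. Between IR_HSO and IR, 4 of 15 were higher and 0 lower, where 19.1% and 7.74% of all genes were. They were Gbp7 (9.76 and 39.0 CPM, 4-fold [2.64, 6.21]), Stat2 (2.28-fold), Irf7 (1.76-fold) and Zbp1 (76.8 and 124 CPM, 1.62-fold [1.37, 1.92]).

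Droplets also take up free RNA, so the share of cells with a UMI was set beside that of plasma cells. An Ifit1 UMI was found in 4.29, 9.26 and 12.9% of T cells, in 1.42, 3.26 and 5.41% of NK cells, and in 0, 1.20 and 1.68% of plasma cells. The 0 of 58 Control plasma cells allows a share of up to 5.17% when 3 cells of the total are taken as the limit of a count of 0. Ifit1 UMIs per cell were 0.189 in T cells and 0.0120 in plasma cells of IR, where plasma cells had a median of 10803 UMIs and T cells of 3551. Ctrb1, a pancreatic enzyme that lymphocytes do not make, stood at 3.12 UMIs per T cell and 1.20 per plasma cell in IR. A Ctrb1 UMI was found in similar shares there, 65.8% of T cells and 63.9% of plasma cells. In IR the Ifit1 share of T cells was 9.26% [8.63, 9.91] and that of plasma cells 1.20% [0.249, 3.48], so these intervals do not overlap. The share of NK cells, 3.26% [2.42, 4.29], overlaps that of plasma cells, and in Control the T cell share lies within the plasma interval [0, 6.16]. The list did not share 1 order. In IR, Isg15 was found in 21.9% of T cells and 12.4% of plasma cells, but Isg20 in 13.6 and 50.2%. Bst2 was found in 43.4 and 57.8%, and Ifi27l2a in 65.0 and 66.3%. The part of free RNA in these shares was not tested.

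Other genes of the pathway came from lists fixed for this comparison, also chosen with earlier results of these data known. Of 12 interferon genes only Ifng passed the minimum in T cells. It was at 12.6, 51.4 and 29.0 CPM, with a ratio of 4.07 [3.55, 4.70] between IR and Control, and 1.77-fold lower in IR_HSO than in IR. In NK cells Ifng was at 122, 129 and 90.2 CPM, with ratios of 1.06 [0.879, 1.28] and 0.701 [0.616, 0.797]. Ifnb1 had 0, 0 and 4 UMIs in T cells, and the listed Ifna and Ifnl genes had 0. Of the receptors and kinases 1 of 8 was higher in IR T cells, Ifngr1, at 120, 229 and 324 CPM with a ratio of 1.92 [1.83, 2.01]. Ifnar1 (77.1, 84.7 and 91.4 CPM) and Ifnar2 (49.2, 51.4 and 58.0 CPM) were nearly level.

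None of 6 transcription factors outside the list reached 1.5-fold. Irf1, which interferon gamma induces, was at 118, 104 and 93.6 CPM, a ratio of 0.884 [0.837, 0.933]. Of 8 further sensing genes 1 was higher, the DNA sensor Cgas, at 9.95, 17.9 and 12.3 CPM with a ratio of 1.80 [1.52, 2.14]. Among 5 brakes on signalling Socs1 (29.8, 128 and 132 CPM, 4.31-fold [3.94, 4.72]) and Socs3 (38.5, 109 and 130 CPM, 2.83-fold [2.61, 3.07]) were higher.

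Of 39 other interferon-stimulated genes compared, 8 were higher and 2 lower in IR T cells, with a median of 0.19. Over all genes 13.4% were higher and 3.19% lower, with a median of 0.16, so the median of these other genes was close to that of any gene. The largest ratios were the chemokine Cxcl10 at 2.43, 40.9 and 48.3 CPM (16.8-fold [12.5, 23.3]), Lgals3bp (2.77-fold) and Ifitm1 (2.74-fold). Ms4a4c was 1.70-fold lower and Ifi214 1.51-fold lower. Of 19 genes typical of interferon gamma, 5 were higher and 2 lower, with a median of 0.41. The largest were Socs1, which is on both lists, the GTPase Iigp1 (1.86-fold) and the checkpoint ligand Cd274 (1.62-fold). Tgtp2 was 1.56-fold lower. Ciita, the master factor of class II presentation and abundant in B cells, was at 15.0, 0.836 and 1.51 CPM, 18-fold lower in IR, beside the B markers that stood at 100, 20.4 and 21.0 CPM in this gate. In IR_HSO against IR, 2 of 40 and 1 of 18 genes of these lists were higher and 0 lower. Over all genes 7.78% were higher and 5.34% lower in that comparison.

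The summed levels do not say how the transcripts were spread over cells, so each T cell was thinned to 1000 UMIs, which left out 14, 229 and 91 shallower cells. Without Ifi27l2a, whose UMIs are many, at least 1 UMI of the other 36 genes was seen in 67.8, 78.7 and 79.4% of the 3176, 7818 and 6775 cells. At least 5 UMIs were seen in 3.65% [3.03, 4.36] of Control, 9.82% [9.17, 10.5] of IR and 12.9% [12.1, 13.7] of IR_HSO cells. At least 10 UMIs were seen in 0.472% [0.265, 0.778], 2.56% [2.22, 2.93] and 3.38% [2.96, 3.84]. The differences between the shares of IR and Control were smaller at higher numbers of UMIs, while their ratios were larger. The median cell held 1, 2 and 2 UMIs, and the 99th percentile was 7, 15 and 16.3. IFIT UMIs turned up in 4.63, 8.58 and 11.4% of the thinned cells, with 1.13, 1.52 and 1.54 UMIs per cell that had any; in unthinned cells the shares were 16.3, 20.6 and 25.9%. In thinned NK cells the IFIT shares were 2.19, 3.27 and 6.73%.

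**Figure D4:**
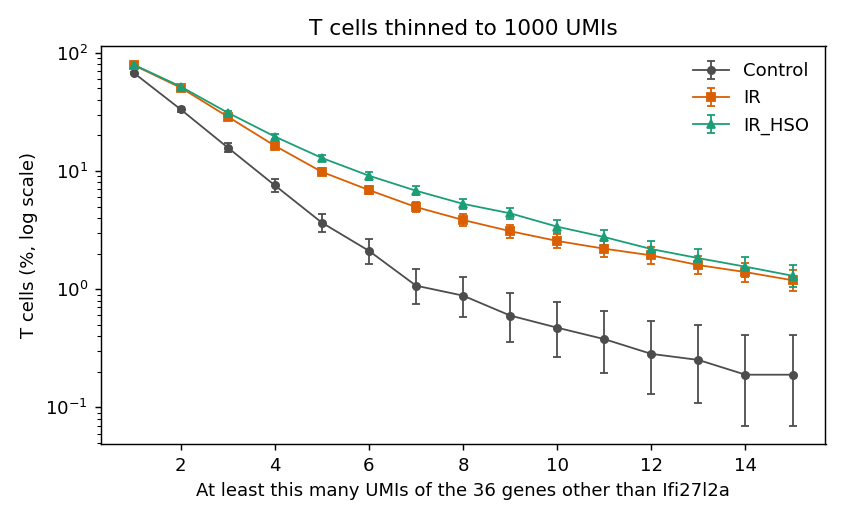
Share of thinned T cells (percent, log scale) with at least a given number of UMIs of the 36 genes other than Ifi27l2a, by library, with 95% exact binomial intervals. At 10 UMIs the shares are 0.472% in Control, 2.56% in IR and 3.38% in IR_HSO.

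The genes were found together in the same cells. Among thinned T cells, 250 of IR and 318 of IR_HSO held an Ifit3 UMI. In both libraries all 36 other genes were seen in a larger share of cells with Ifit3 than of cells without, with intervals that do not overlap. In IR, Ifit1 was seen in 25.6% [20.3, 31.5] of cells with Ifit3 and 2.81% [2.45, 3.21] of the rest. Isg15 was seen in 40.4 and 7.06%, Rsad2 in 13.6 and 0.925%, and Slfn5, whose summed level was below the 1.5-fold limit between IR and Control, in 38.0 and 8.89%. Gbp2 shared the pattern, at 9.2 and 3%, although its summed level was not higher in IR. In IR_HSO the shares were 29.9 and 4.07% for Ifit1 and 34.0 and 7.05% for Isg15. Among genes seen in at least 0.5% of cells without Ifit3, the median ratio of the shares was 4.07 for 33 genes of the list and 0.968 for 10001 other genes of IR. In IR_HSO it was 3.30 and 0.946. A share at least 1.5-fold larger in cells with Ifit3 was seen for 100% of the list and 11.6% of the other genes in IR. In IR_HSO the values were 100 and 9.58%. For intervals that do not overlap, no share over all genes is given here. In Control only 30 cells held an Ifit3 UMI, and 30 of the 36 genes had a larger share there, 9 with intervals apart. The median ratio in Control was 2.93 for 29 genes of the list and 0.685 for 9510 other genes. There 75.9% of the list and 24.4% of the other genes had a share at least 1.5-fold larger. This comparison was chosen after its values were seen. All cells compared were thinned to the same depth, and no p-value is given across cells of 1 library.

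**Figure D5:**
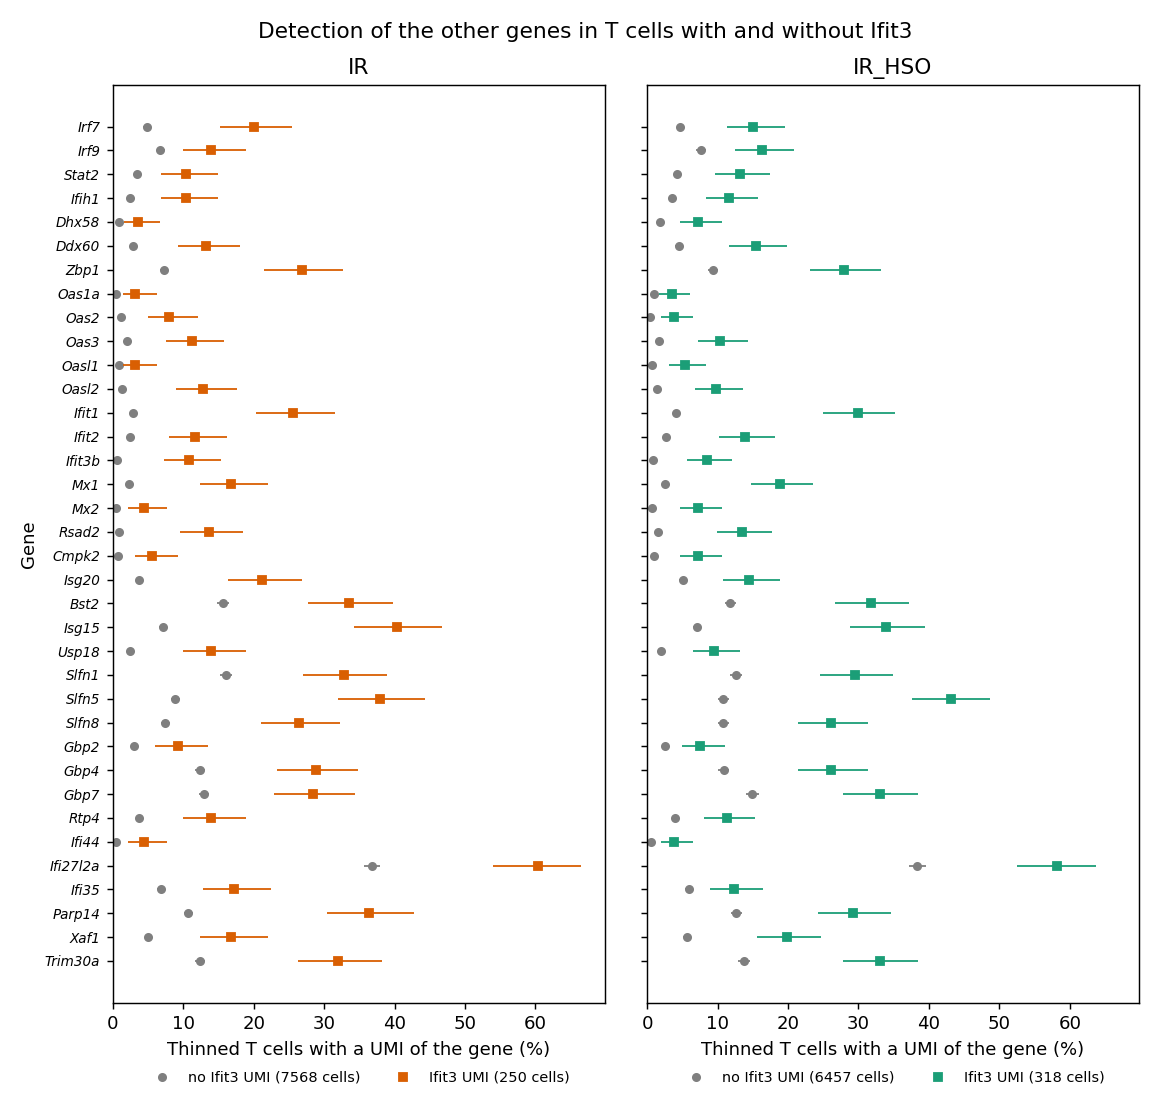
Share of thinned T cells with a UMI of each of the other 36 genes (x axis, percent), in cells with an Ifit3 UMI (squares) and without (circles), for IR and IR_HSO, with 95% exact binomial intervals. Every square lies to the right of its circle; Isg15 in IR is at 40.4 against 7.06%.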

How the data were processed

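Deposited values are raw whole-number counts of UMIs for every gene in every barcode; per the file headers Cell Ranger 7.0.1 produced them, against build GRCm39, per the submitters' processing notes; the annotation release and alignment settings are not given in the sources used here. Totals were 47298108, 50836313 and 45636807 UMIs over 9520, 13509 and 12710 barcodes (Control, IR, IR_HSO), and barcodes with at least 10% mitochondrial UMIs (357, 643, 2102) were left out. From the counts, UMIs were summed per library and gate and scaled to CPM. Ratios have exact conditional 95% intervals and shares exact binomial ones; they cover counting error only, and zeros were set to 3 counts. The design allows no test. Doublets were left to the exclusive gates, with Scrublet (scanpy 1.11.5) removal as an alternative. The members and lists were chosen with earlier results of these data known. Named genes were, in T cells, the 12 (IR against Control) and 8 (IR_HSO against IR) with the largest absolute log2 ratio, 5 in each other gate, and the ends of each role group. Genes named by library for subsets, Oas1b and Oas1g, the cells holding IFIT UMIs and the all-gene comparison with Ifit3 were chosen after their values were seen. Promoter letters came from RefSeq (GRCm38.p6), a build other than the authors'. The values of 1 gene of the pathway lists are not reported here. Code was tested on simulated data. The alternatives were 14 planned settings and 1 added later.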

Additional observations from a re-analysis of the deposited data

Results flagged for a closer look

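Ifit3 differed between gates in the direction of IR_HSO against IR. The ratio was 1.62 in T cells and 1.96 in NK cells, but 0.0756 in B cells. The difference was not tested, and the B cell value rests on 22 UMIs in IR and 1 in IR_HSO.

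Barcodes at or over 10% mitochondrial UMIs, which no comparison used, also held transcripts of the list. Their summed level was 2028 CPM in IR and 2087 CPM in IR_HSO, above the 1548 CPM of the same class in Control. They numbered 357 in Control, 643 in IR and 2102 in IR_HSO.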

How the results depend on the processing

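With 1 library per group no library could be left out, and no spread between replicates was known. No paired analysis was possible because each group has 1 library. In T cells the counts of IR against Control stayed within 1.5 times of 25 higher under every setting run but the 2-fold limit. That limit gave 14, where 6.75% of all genes were higher. Under all settings 0 were lower. Counts below are of genes higher in the first-named library unless called lower. A 2-fold limit gave, for IR against Control, 12 in NK cells (0 lower) and 0 in plasma cells (1 lower). Over all genes 7.36 and 2.58% were higher there and 2.61 and 38.8% lower. For IR_HSO against IR it gave 1 in T cells (0 lower) and 5 in NK cells. It also gave 0 in B cells (3 lower) and 2 in plasma cells there. In that order 1.97, 2.74, 4.38 (7.65% lower) and 6.26% of all genes were higher. For IR against Control a minimum of 20 CPM gave 9 in NK cells (0 lower) and 11 in B cells (1 lower). In plasma cells it gave 1 (2 lower). Over all genes 8.44, 14.1 and 2.61% were higher in these gates and 6.32, 13.2 and 72.8% lower. For IR_HSO against IR it gave 4 in T cells (0 lower), 3 in NK cells and 2 in plasma cells. There 4.84, 4.40 and 13.4% of all genes were higher. With cells of more than 1 gate kept, IR against Control gave 0 lower in NK cells, where 11.7% of all genes were lower. It gave 4 in B cells (14 lower) and 8 in plasma cells (1 lower). Over all genes 6.17 and 6.05% were higher there and 77.6 and 52.6% lower. IR_HSO against IR gave 3 in B cells and 2 in plasma cells (2 lower), where 7.86 and 9.47% of all genes were higher. That setting turned log2 ratios of IR against Control to -0.15 for Ifit2, -0.23 for Ifit3b and -0.41 for Oasl2 in B cells, -0.022 for Oasl1 in NK cells and 0.015 for Irf7 in plasma cells. It turned those of IR_HSO against IR to 0.88 for Zbp1 in B cells and -0.058 for Irf7 in plasma cells. In B cells the summed level of the list then had a log2 ratio of -0.18. The list had a median of -0.44, against -1.14 for all genes. Cells that met the B gate and any of the T, NK or plasma gates enter there by construction. In plasma cells IR against Control gave 9 (1 lower) when centred on all genes. It gave 8 (1 lower) without immunoglobulin, mitochondrial, ribosomal, haemoglobin and pancreatic genes in the scale. Irf7 stood at 0.093 and 0.036 in the first and second of these settings. The mean of each cell's CPM gave 6 (2 lower), doublet removal 1, and thinning 0 of 3 genes compared (0 lower). In that order of settings 18.5, 15.5, 8.5, 4.3 and 9.71% of all genes were higher and 19.4, 20.8, 50.1, 64.4 and 44.8% lower. Thinning, which leaves fewer genes to compare, also gave for IR against Control 11 of 24 in NK cells (0 lower) and 1 of 26 lower in B cells. It gave log2 ratios of -1.34 for Gbp4 and -1.07 for Isg15 in plasma cells. For IR_HSO against IR thinning left 1 gene of the list to compare in B cells, 31 in NK cells and 4 in plasma cells. It gave 0 in B cells (0 lower), 1 lower in NK cells and 1 in plasma cells (1 lower). Over all genes thinning gave 18.9% in NK cells and 14.5% lower in B cells for IR against Control. For IR_HSO against IR it gave 12.4% in B cells (25.3% lower), 10.9% lower in NK cells and 14.9% in plasma cells (18% lower). The mean of each cell's CPM gave 0 lower in NK cells for IR against Control, and for IR_HSO against IR 2 lower in NK cells, 3 lower in B cells and 2 in plasma cells (2 lower). The scale without immunoglobulin, mitochondrial, ribosomal, haemoglobin and pancreatic genes gave 15 in NK cells for IR_HSO against IR. In that comparison 12.7% of all genes were higher. Under 5% mitochondrial UMIs gave 2 lower there, where 6.53% of all genes were lower. B cells without a Cd3 UMI, a setting chosen after seeing the data, gave 2, where 14.4% of all genes were higher. Where no construction is named, the cause was not tested. Of 680 values of named genes under the alternatives, 637 stayed within their counting interval. That scale moved the median of all genes in T cells from 0.16 to 0.03 for IR against Control, and in T cells 80.7% of the calls of all genes were higher, against 69.1% with that scale and 67% when centred. For IR_HSO against IR these shares were 59.3, 71 and 52.9%.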

Other observations

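Cells that met no gate also carried the genes of the list. They numbered 971 in Control, 2776 in IR and 2237 in IR_HSO. Their summed level was 2258 CPM [2212, 2306], 1965 CPM [1929, 2001] and 2280 CPM [2243, 2318], so the order of Control and IR was the reverse of that in T cells. The IFIT genes alone stood there at 56.5, 96.1 and 144 CPM, in the order seen in T cells. Whether the cells that met no gate are of the same types in each library was not tested.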
